A study of Rattus norvegicus with 9 samples.

Results

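The circadian clock genes Per1, Per2, Per3, Cry1, Arntl, Clock, Nr1d1, Nr1d2, Dbp and Tef were followed by symbol through dorsal root ganglia of rats after spinal cord injury. The 10 genes were taken as listed, and all 10 were found among the 30446 genes of the count table and passed the filter on low counts, as did 16627 genes in all. Dorsal root ganglia hold the cell bodies of sensory neurons and their glia. RNA was sequenced from lumbar and lowest thoracic ganglia of both sides of male rats of the Sprague-Dawley strain. Each group had 3 libraries, and the groups were rats with a spinal cord injury (SCI), rats with a sham operation and naive rats. All groups carry the label of day 30, and no genotype or drug is named for any of them. The age of the rats, the kind of cord injury and the hour of tissue collection were not stated in the labels. Since the labels do not say whether a library came from 1 animal or a pool, p-values speak only of how much the libraries vary.

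The mammalian clock is a feedback loop of transcription. The proteins of Clock and Arntl (BMAL1, named Bmal1 in newer annotations) pair and switch on genes that carry E-boxes, among them the Per and Cry genes, Nr1d1 and Nr1d2, Dbp and Tef. PER and CRY proteins in turn hold back the pair, and the Nr1d1 and Nr1d2 products (REV-ERB alpha and beta) repress Arntl, which therefore peaks in most tissues when Dbp and Nr1d1 are low. Dbp and Tef encode output factors that bind D-boxes. Because many of these transcripts swing over the day in peripheral tissues, though not all to the same degree, their level can depend on the hour at which a tissue is taken. The Per genes, and Per1 above all, also respond directly to glucocorticoids and to cAMP signals.

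Library totals ran from 16724878 to 32060538 counts, and the clock genes had between 217 and 4778 counts per library. Levels are in CPM, a gene's counts as a share of the library's scaled total, and are compared within a gene and not between genes. The sham libraries differed among themselves more than those of the other groups across the whole table. The chi-square per degree of freedom was 13.2 between sham 1 and sham 2, 12.9 between sham 2 and sham 3 and 41.2 between sham 1 and sham 3, so that sham 1 and sham 3 lay farthest apart. Pairs within the SCI or naive groups reached at most 8.01. Sham 1 was also farther from the SCI libraries, at 14.1 to 25.9, than sham 3, at 10.9 to 12.6. Sham 2 was nearest to them, at 4.22 to 7.29. This chi-square was taken on unscaled counts and grows with library totals, and sham 2 had the lowest total, so close values are not ranked. All 11 sensory neuron markers passed the filter, and their summed level was 25160 to 26000 CPM in SCI libraries, 22860 to 32920 in sham and 22770 to 23630 in naive libraries. Within the sham group the neuron sum was lowest and the Schwann cell, satellite glia, macrophage and fibroblast sums were highest in sham 3. In bulk ganglia, fewer cells of a type and less RNA per cell cannot be told apart.

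Promoter windows from RefSeq (build GRCr8), from 250 bases before to 50 bases after the annotated start, were found for 9 of the 10 genes. They were searched on both strands for an E-box (CACGTG), a D-box (TTATGTAA or TTACGTAA), the core of the ROR element that REV-ERB proteins bind (TAGGTCA or TGGGTCA) and a cAMP response element (TGACGTCA). Arntl, Per2 and Tef had 1 match each. They are shown because the words belong to the loop described above, with the match in capitals in the 250 bases before the start. Whether the values below follow these sites was not tested.
Arntl, ROR element core 16 bases before the start, chr1:176766078-176766327, plus strand: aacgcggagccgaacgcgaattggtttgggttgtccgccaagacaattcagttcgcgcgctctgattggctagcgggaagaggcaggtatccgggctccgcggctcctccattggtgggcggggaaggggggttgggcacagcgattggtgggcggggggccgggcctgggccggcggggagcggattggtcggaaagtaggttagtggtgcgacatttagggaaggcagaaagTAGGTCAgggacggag
Per2, D-box 192 bases before the start, chr9:99496994-99497243, minus strand: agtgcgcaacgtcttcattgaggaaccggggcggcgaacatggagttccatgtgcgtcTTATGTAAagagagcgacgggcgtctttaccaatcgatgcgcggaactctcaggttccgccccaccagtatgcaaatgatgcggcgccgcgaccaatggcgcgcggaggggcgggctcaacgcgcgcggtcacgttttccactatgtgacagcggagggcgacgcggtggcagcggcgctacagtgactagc
Tef, E-box 198 bases before the start, chr7:115206577-115206826, plus strand: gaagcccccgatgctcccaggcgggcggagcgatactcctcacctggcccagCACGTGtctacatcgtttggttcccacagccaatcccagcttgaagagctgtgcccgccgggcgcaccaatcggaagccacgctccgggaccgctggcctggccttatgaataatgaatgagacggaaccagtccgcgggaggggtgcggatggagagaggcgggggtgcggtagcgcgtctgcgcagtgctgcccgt
Of 27457 windows of the same length, 6.51% held the ROR element core, 1.005% a D-box, 6.65% an E-box and 1.91% a cAMP response element. The words searched do not overlap each other in these 3 windows. A match describes the letters only, and the other windows were without a match to these words, which says nothing about sites farther away. Variants of these words, such as E-boxes that differ from CACGTG by a letter, were not searched for in any window.

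The comparison of SCI with sham concerned what injury of the cord adds to the operation itself. No clock gene passed the test. The widest difference was that of Nr1d1, at 33.8 ± 3.80 CPM in SCI and 46.9 ± 29.6 in sham (SD, n = 3 each), and it rested on 1 sham library. Without sham 3, Per2, a repressor of the loop, was higher in SCI, and without sham 1 it did not pass. Arntl alone among the 10 genes had all SCI libraries above all sham libraries, by a small margin.

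By edgeR's quasi-likelihood test with Benjamini-Hochberg adjustment over all genes, 0 of the 10 clock genes and 0.0% of the 16627 genes were called between SCI and sham at an adjusted p under 0.05. All 10 clock genes had an adjusted p of 0.9999. Unadjusted p-values were under 0.05 for 526 genes (3.16%) and again for 0 of the 10, while DESeq2 called 8 genes and limma-voom 0, with no clock gene in either. The groups did not overlap in 1 of the 10 clock genes, which was higher in SCI, against 6.41% of all genes (3.3% higher, 3.11% lower). Of the 10 log2 changes 5 were positive, with a median of 0.020 where the median of all genes was -0.0008.

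Of the activators, Arntl stood at 18.1, 16.5 and 16.7 CPM in SCI 1 to 3, at 15.3, 15.1 and 15.2 in sham 1 to 3, and at 12.7, 13.8 and 13.2 in naive 1 to 3. The 3 groups did not overlap, in the order SCI, sham, naive. The log2 change of Arntl between SCI and sham was 0.17 (SE 0.08). Clock, its partner, stood at 39.9, 33.9 and 33.4 CPM in SCI 1 to 3, at 31.0, 36.6 and 35.7 in sham 1 to 3, and at 61.7, 60.9 and 61.9 in naive 1 to 3. The SCI and sham libraries overlapped, and all of them lay below the naive libraries. Between SCI and sham the log2 change of Clock was 0.06 (SE 0.08).

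Among the repressors, Per1 stood at 65.3, 73.4 and 80.1 CPM in SCI 1 to 3, at 48.2, 56.2 and 81.5 in sham 1 to 3, and at 62.0, 62.9 and 54.7 in naive 1 to 3. The highest value of all was that of sham 3, and the other sham libraries lay below every SCI library. Per2 stood at 33.9, 33.7 and 34.3 CPM in SCI 1 to 3, at 21.8, 24.5 and 37.1 in sham 1 to 3, and at 36.9, 37.8 and 39.3 in naive 1 to 3. Here too sham 1 and sham 2 were low and sham 3 lay above the SCI libraries. Per3 stood at 37.3, 39.3 and 38.0 CPM in SCI 1 to 3, at 28.7, 30.9 and 44.8 in sham 1 to 3, and at 50.31, 50.03 and 55.19 in naive 1 to 3. The 3 Per genes thus had the same order of sham libraries, with sham 1 lowest and sham 3 highest. Their log2 changes between SCI and sham were 0.24 (SE 0.15) for Per1, 0.29 (SE 0.14) for Per2 and 0.14 (SE 0.13) for Per3.

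Without sham 3 the log2 change of Per2 between SCI and sham was 0.56 (SE 0.07), with an edgeR adjusted p of 0.0175. It was 1 of 22 genes called in that fit, which are 0.131% of 16849 tested. All 3 SCI libraries lay above both remaining sham libraries. Without sham 3, Per1 and Per3 missed the threshold, with log2 changes of 0.48 for Per1 (SE 0.09, edgeR adjusted p = 0.0625) and 0.36 for Per3 (SE 0.07, edgeR adjusted p = 0.0688). Leaving out sham 1 instead brought the log2 changes down to 0.13 for Per2 (SE 0.12), 0.074 for Per1 (SE 0.12) and 0.0036 for Per3 (SE 0.11), with edgeR adjusted p-values of 0.889, 0.944 and 0.998. The size of the Per changes between SCI and sham thus depended on which sham library was left out. In none of the alternatives other than the one without sham 3 did a Per gene pass between SCI and sham. Of 10 tested markers of skeletal muscle none passed between SCI and sham (smallest edgeR adjusted p = 0.442). They had log2 changes with a median of -0.89, none positive, and a summed level of 62.5 to 98.5 CPM in SCI and 133.7 to 154.5 in sham. Their part in the Per values was not tested.

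Cry1, the other repressor of the list, stood at 13.08, 10.97 and 12.78 CPM in SCI 1 to 3, at 13.2, 12.9 and 12.0 in sham 1 to 3, and at 15.1, 14.6 and 15.2 in naive 1 to 3. Unlike the Per genes it was lowest in sham 3 among the sham libraries, and SCI and sham overlapped. Its log2 change between SCI and sham was -0.04 (SE 0.09).

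Nr1d1 stood at 29.7, 37.3 and 34.3 CPM in SCI 1 to 3, at 30.0, 29.6 and 81.1 in sham 1 to 3, and at 45.2, 37.1 and 35.6 in naive 1 to 3. Sham 3 was 2.74 times as high as the lowest sham library, and no other library was near it. The log2 change of Nr1d1 between SCI and sham was -0.48 (SE 0.29), 0.17 without sham 3 and -0.73 without sham 1. Nr1d1 and Thra, a thyroid hormone receptor gene, overlap on opposite strands in GRCr8, and the library kit does not mark strand. Thra stood at 222 to 227 CPM in SCI and 214 to 240 in sham libraries, against 135 to 144 in naive libraries, with sham 3 at 232, so that it did not share the high value of Nr1d1 in sham 3. Nr1d2 stood at 59.2, 60.7 and 65.1 CPM in SCI 1 to 3, at 55.1, 70.8 and 75.9 in sham 1 to 3, and at 111.5, 101.2 and 92.9 in naive 1 to 3. It overlapped between SCI and sham (log2 change -0.12, SE 0.11), and sham 2 was nearly as high as sham 3.

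Of the output factors, Dbp stood at 50.8, 59.9 and 65.1 CPM in SCI 1 to 3, at 47.1, 54.0 and 119.2 in sham 1 to 3, and at 70.9, 56.1 and 55.7 in naive 1 to 3. Like Nr1d1 it was far higher in sham 3 than in any other library, and the remaining libraries of the 3 groups overlapped. Its log2 change between SCI and sham was -0.33 (SE 0.26), 0.21 without sham 3 and -0.58 without sham 1. Tef stood at 130.4, 142.1 and 144.5 CPM in SCI 1 to 3, at 130.4, 137.9 and 154.7 in sham 1 to 3, and at 163.6, 150.4 and 147.7 in naive 1 to 3. The order of libraries within SCI and within sham was the same as for Dbp, over a narrower range. Between SCI and sham the log2 change of Tef was -0.02 (SE 0.08).

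**Figure D1:**
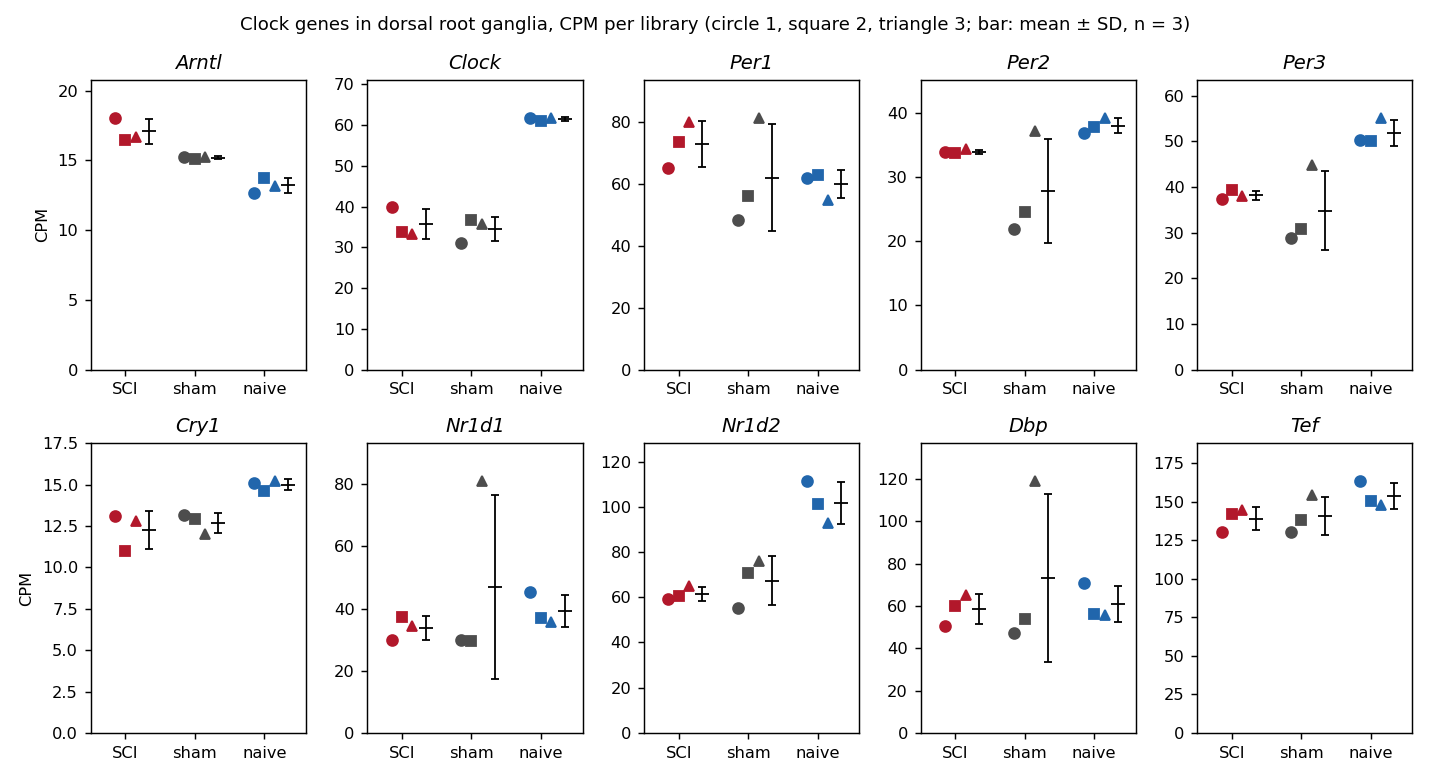
CPM of the 10 clock genes in each library (y axis, from 0), with SCI, sham and naive on the x axis, 1 symbol per library and the mean ± SD (n = 3) beside each group. Sham 3 lies at 81.1 CPM for Nr1d1 and 119.2 for Dbp, above all other libraries, while Clock and Nr1d2 lie lower in all SCI and sham libraries than in the naive ones.

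The spread of the sham libraries differed widely between the clock genes. On the log2 scale the range over the sham libraries was 1.45 for Nr1d1 and 1.34 for Dbp, wider than in 98.5% and 98.0% of tested genes, where the median gene had a range of 0.32. For Per1, Per2 and Per3 it was 0.76, 0.76 and 0.64, at percentiles 88.7, 89.0 and 83.4. For Arntl it was 0.016, narrower than in all but 0.174% of genes, and for Cry1 0.13. Nr1d2 lay between, at 0.46 and percentile 69.3, and Tef and Clock were below the median gene, at 0.25 and 0.24. Within SCI the widest ranges were those of Dbp, at 0.36, and Nr1d1, at 0.33, and Per2 was the narrowest at 0.027, where the median gene had 0.18. Naive libraries had a range of 0.35 for Dbp and 0.34 for Nr1d1, with naive 1 highest for both, and the median gene had 0.15.

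Sham 3 lay above the mean of sham 1 and sham 2 by 1.44 for Nr1d1, 1.24 for Dbp, 0.68 for Per2, 0.64 for Per1 and 0.59 for Per3 on the log2 scale. These differences sat at percentiles 99.8, 99.6, 96.2, 95.6 and 94.4 of all tested genes. Nr1d2 and Tef differed by 0.28 and 0.21, at percentiles 79.4 and 72.8. Clock, Arntl and Cry1 differed by 0.081, 0.003 and -0.12. Sham 3 was the highest sham library for 7 of the 10 clock genes and for 40.0% of tested genes, and the highest of all 9 libraries for 3 of the 10 and for 19.1% of tested genes. Nr1d1, Dbp and the Per genes were thus higher in sham 3 than in sham 1 and sham 2. Arntl stood level in the 3 sham libraries. For Per2 and Per3, sham 1 and sham 2 lay below every SCI and naive library. Sham 3 lay within the naive range for Per2, at 37.1 CPM, and below it for Per3, at 44.8. The Schwann cell marker sum was 16870, 18480 and 20960 CPM in sham 1 to 3, and the macrophage sum 423, 494 and 599. The neuron sum ran the other way, at 32920, 25890 and 22860 CPM. The part of cell makeup and of the hour of collection in the sham 3 values was not tested.

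**Figure D2:**
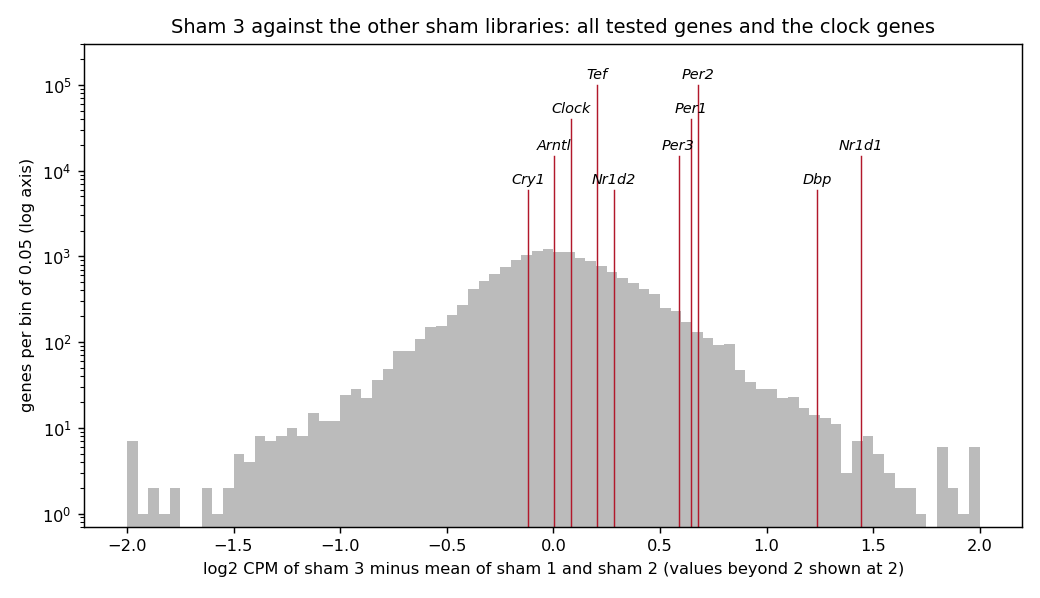
Histogram of all 16627 tested genes (y axis, genes per bin on a log scale) by log2 CPM of sham 3 minus the mean of sham 1 and sham 2 (x axis, values beyond 2 drawn at 2), with a red line for each clock gene. Nr1d1 and Dbp lie in the far right tail at 1.44 and 1.24, the Per genes between 0.59 and 0.68, and Arntl at 0.003 lies in the middle.

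**Figure D3:**
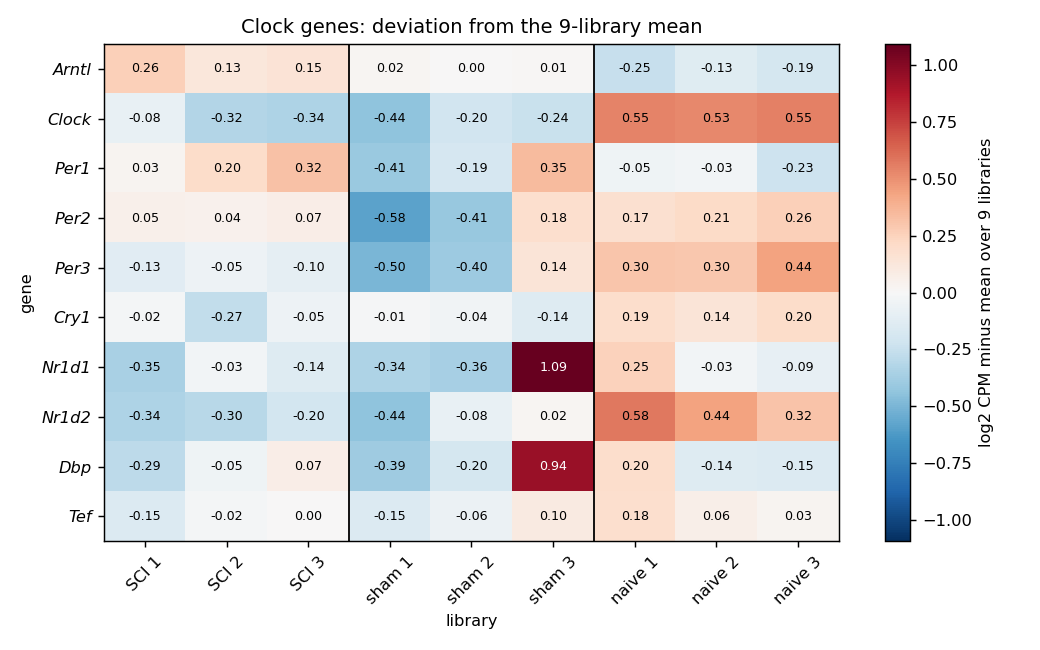
Log2 CPM of each clock gene (rows) in each library (columns; SCI, sham, naive) minus its mean over the 9 libraries, with the value printed in each cell. The deepest red cells are Nr1d1 and Dbp in sham 3, and Clock and Nr1d2 are red in all naive libraries.

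Injured rats were next set against naive rats, which had no operation. Clock and Nr1d2 fell most, and Per3 and Cry1 fell as well, while Arntl rose. Dbp, Nr1d1, Tef, Per1 and Per2 did not pass the test. The activators Clock and Arntl thus moved in opposite directions. The naive libraries differ from both other groups in nearly every second gene tested, and a batch that holds only naive libraries cannot be told apart from an effect of injury or surgery.

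Between SCI and naive, 5 of the 10 clock genes were called, with 1 higher and 4 lower, against 48.5% of all tested genes (23.9% higher, 24.6% lower). The count of clock genes is therefore near the background, and the median log2 change of the 10 was -0.19 where that of all genes was 0.0115. Clock averaged 35.7 ± 3.62 CPM in SCI and 61.5 ± 0.502 in naive (SD, n = 3 each), a log2 change of -0.78 (SE 0.08, edgeR adjusted p = 8.728e-06). Nr1d2 averaged 61.7 ± 3.09 CPM in SCI and 101.9 ± 9.28 in naive, a log2 change of -0.72 (SE 0.10, edgeR adjusted p = 0.000101). For both genes every SCI library lay below every naive library. Per3 averaged 38.2 ± 0.985 CPM in SCI and 51.8 ± 2.91 in naive, with a log2 change of -0.44 (SE 0.12, edgeR adjusted p = 0.0101). Arntl averaged 17.1 ± 0.878 CPM in SCI and 13.2 ± 0.546 in naive, with a log2 change of 0.37 (SE 0.08, edgeR adjusted p = 0.00157). The calls of Clock, Nr1d2, Per3 and Arntl held in all 17 alternatives run. Cry1 averaged 12.3 ± 1.14 CPM in SCI (SD, n = 3) and lay between 14.6 and 15.2 in naive libraries, with its groups apart (log2 change -0.28, SE 0.09, edgeR adjusted p = 0.0180). Its call was lost without naive 1 (edgeR adjusted p = 0.0534), naive 3 (0.0528) or SCI 2 (0.101).

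Some clock genes that did not pass between SCI and naive still had groups without overlap. The SCI and naive libraries did not overlap in 8 of the 10 clock genes, 2 above and 6 below, against 64.1% of all genes (32.2% above, 31.9% below). Per1 averaged 72.9 ± 7.45 CPM in SCI and 59.9 ± 4.52 in naive, with all SCI libraries above all naive ones (log2 change 0.28, SE 0.15, edgeR adjusted p = 0.130). Per2 averaged 33.96 ± 0.317 CPM in SCI and 38.0 ± 1.20 in naive, a log2 change of -0.16 (SE 0.14, edgeR adjusted p = 0.357). In the common fit the wide sham spread of these genes enters their error. With only the SCI and naive libraries in the fit, Per1 (edgeR adjusted p = 0.00414), Per2 (0.0125), Nr1d1 (0.0427) and Tef (0.0168) passed too, so that 9 of 10 clock genes were called, against 58.4% of all genes in that fit. Without sham 3, where 54.5% of all genes were called, Per1 and Per2 passed with edgeR adjusted p-values of 0.00791 and 0.0383. Dbp averaged 58.6 ± 7.27 CPM in SCI and 60.9 ± 8.67 in naive (log2 change -0.06, SE 0.26), and its libraries overlapped. Cell type markers differed as well. The summed level of the 7 Schwann cell markers was 18220 to 22210 CPM in SCI and 28680 to 30460 in naive, with 5 of 7 lower and 0 higher in SCI. The macrophage sum was 509.7 to 542.6 CPM in SCI and 299.8 to 377.7 in naive, with 5 of 8 higher and 1 lower. Their part in the clock gene values was not tested. Over the 3 groups together, 6 of the 10 clock genes differed, against 48.5% of all genes.

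The comparison of sham with naive asked what the operation alone went with. Clock, Nr1d2, Per3, Per2 and Cry1 fell, and Arntl rose by a narrow call. Dbp and Nr1d1 had higher means in sham, and lower ones without sham 3. This comparison shares its naive libraries with that of SCI and naive, so both sets of values carry the same naive levels. Markers of other cells differed too. Of 10 skeletal muscle markers 8 were higher and 0 lower in sham (median log2 change 1.01), with a summed level of 133.7 to 154.5 CPM in sham and 62.5 to 100.9 in naive. Of 7 Schwann cell markers 5 were lower and 0 higher (median -0.75), of 8 macrophage markers 5 were higher and 1 lower, and all 5 tested blood cell markers were lower. Among all tested genes 24.7% were higher and 25.9% lower in sham. The part of these cell types in the clock gene values was not tested.

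Of the 10 clock genes 6 were called between sham and naive, 1 higher and 5 lower, against 50.6% of all tested genes (24.7% higher, 25.9% lower). The libraries did not overlap in 5 of the 10, 1 above and 4 below, against 56.7% of all genes (27.5% above, 29.2% below). Clock averaged 34.4 ± 2.98 CPM in sham against 61.5 ± 0.502 in naive, a log2 change of -0.84 (SE 0.08, edgeR adjusted p = 4.315e-06). Nr1d2 averaged 67.3 ± 10.9 CPM in sham against 101.9 ± 9.28 in naive, a log2 change of -0.60 (SE 0.10, edgeR adjusted p = 0.000360). Per3 averaged 34.8 ± 8.72 CPM in sham against 51.8 ± 2.91 in naive, a log2 change of -0.58 (SE 0.13, edgeR adjusted p = 0.00191). These 3 genes kept their calls in all 17 alternatives, and their libraries did not overlap. Per2 averaged 27.8 ± 8.16 CPM in sham against 38.0 ± 1.20 in naive, a log2 change of -0.45 (SE 0.14, edgeR adjusted p = 0.0164). Its log2 change was -0.71 without sham 3 and -0.30 without sham 1 (edgeR adjusted p = 0.0455), and its call was lost without sham 2 (edgeR adjusted p = 0.0743).

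The calls of Arntl and Cry1 between sham and naive lay near the threshold. Arntl averaged 15.2 ± 0.0850 CPM in sham against 13.2 ± 0.546 in naive, a log2 change of 0.20 (SE 0.08, edgeR adjusted p = 0.0478), and 14 of 17 alternatives lost the call, with adjusted p-values from 0.0354 to 0.143 over all 17. Cry1 averaged 12.7 ± 0.606 CPM in sham (SD, n = 3) against 14.6 to 15.2 in naive libraries (log2 change -0.24, SE 0.09, edgeR adjusted p = 0.0398), and 11 of 17 alternatives lost the call, with adjusted p-values from 0.0284 to 0.101. With the replicate number as a block both were lost, at adjusted p-values of 0.0769 for Arntl and 0.0503 for Cry1. Both genes kept their direction in every alternative. Leaving out sham 3 turned the sign for Nr1d1 and Dbp. Nr1d1 had a log2 change of -0.39 without sham 3 (SE 0.11, edgeR adjusted p = 0.00705) and of 0.25 with all libraries (SE 0.29). Dbp had -0.26 without sham 3 (SE 0.11, edgeR adjusted p = 0.0669) and 0.27 with all libraries (SE 0.26). Per1 turned as well, to -0.20 against 0.05, and did not pass in either fit. Tef, at -0.13 (SE 0.08) with all libraries, had -0.19 (SE 0.07, edgeR adjusted p = 0.0270) without sham 3.

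**Figure D4:**
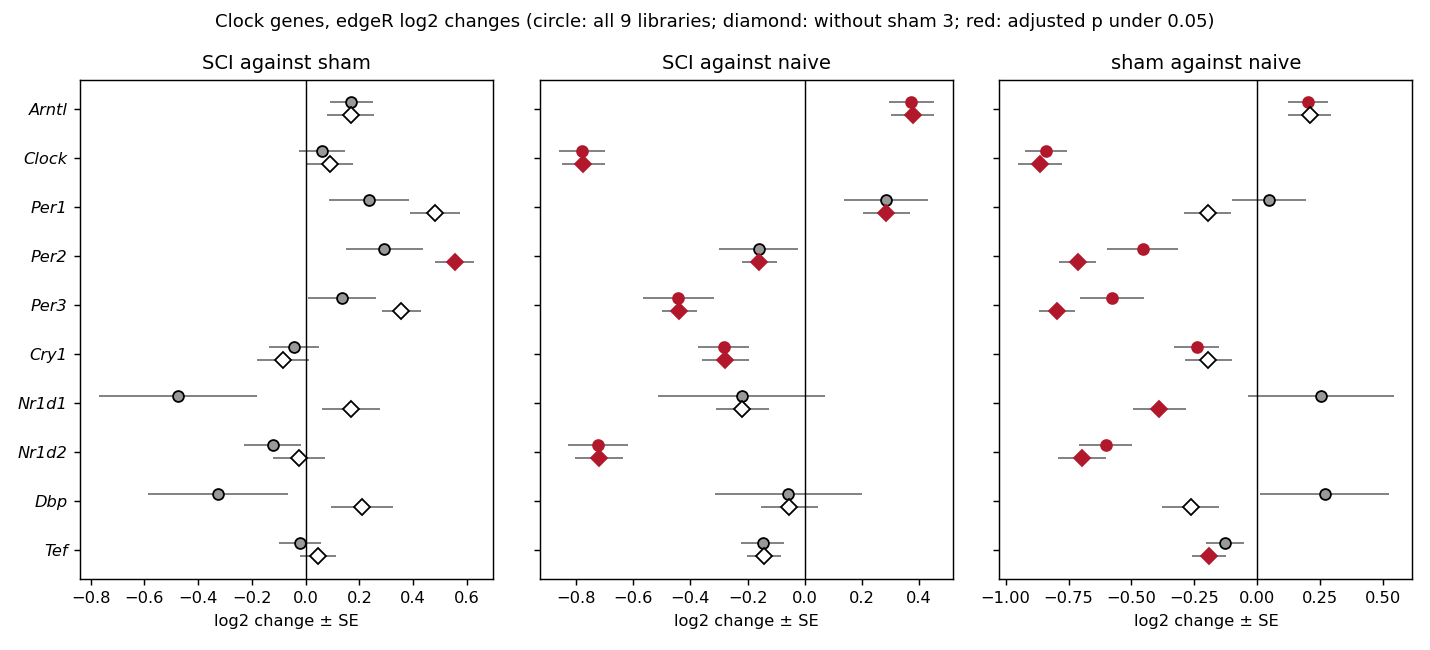
Log2 change ± SE (x axis) of each clock gene (y axis) in SCI against sham, SCI against naive and sham against naive, with all 9 libraries (circles) and without sham 3 (diamonds), and red where the edgeR adjusted p is under 0.05. Nr1d1 and Dbp change sides of 0 without sham 3 in the first and last panel, while Clock and Nr1d2 stay near -0.8 and between -0.6 and -0.73 against naive.

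A single value per library set genes driven by E-boxes against the activators Arntl and Clock. It is the mean log2 CPM of Dbp, Tef, Nr1d1, Nr1d2, Per1, Per2 and Per3 minus that of Arntl and Clock. This contrast was 0.94, 1.26 and 1.29 in SCI 1 to 3, 1.004, 1.052 and 1.711 in sham 1 to 3, and 1.28, 1.11 and 1.10 in naive 1 to 3. Sham 3 had the highest value and SCI 1 the lowest, and all 3 groups overlapped. The group means were 1.16 ± 0.20 in SCI, 1.26 ± 0.40 in sham and 1.16 ± 0.10 in naive (SD, n = 3 each), closer together than the spread within sham. Since Clock and Arntl moved in opposite directions against naive, the contrast depends on which of them it holds. With Arntl alone it was 1.69 ± 0.16 in SCI, 1.84 ± 0.43 in sham and 2.27 ± 0.13 in naive, so that SCI lay below naive by 0.58.

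Of 18 other core and accessory clock genes 16 were tested, and 0 were called between SCI and sham. Ciart, which encodes a repressor of the CLOCK and BMAL1 pair, stood at 4.70, 4.10 and 4.41 CPM in SCI 1 to 3, at 2.90, 3.21 and 8.88 in sham 1 to 3, and at 5.97, 5.32 and 4.18 in naive 1 to 3. As for Nr1d1 and Dbp, sham 3 was the highest library, above the mean of the other sham libraries by 1.52 on the log2 scale, at percentile 99.8. In the SCI libraries Ciart was highest in SCI 1, where Dbp and Nr1d1 were lowest. Bhlhe40, another repressor driven by E-boxes, stood at 32.2 CPM in sham 3 and at 20.8 to 23.7 in the other 8 libraries. Sham 3 was not the highest sham library for Bhlhe41 or Cry2. It differed from the mean of the other sham libraries by -0.16 for Bhlhe41 and -0.02 for Cry2, at percentiles 25.9 and 45.5. Arntl2, Csnk1d, Csnk1e and Btrc were not highest in sham 3 among the sham libraries either. Hlf, the third of the D-box factors beside Dbp and Tef, stood at 1.04 to 1.95 CPM in SCI libraries, 1.32 to 2.28 in sham and 1.73 to 2.46 in naive libraries. Nfil3, which competes at D-boxes as a repressor, was lowest in sham 3 among the sham libraries, at 6.50, 6.84 and 5.11 CPM in sham 1 to 3. Npas2, a stand-in for Clock, Arntl2 and Rora, an activator of Arntl, stood at or under 1.253 CPM in every library, where counting error is large. Rorb was under the filter.

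Against naive, 2 of the 16 accessory genes rose and 2 fell in SCI, and 2 rose and 2 fell in sham. Of all tested genes 48.5% were called in SCI and 50.6% in sham, a larger share than of the accessory genes. Cry2, the partner repressor of Cry1, averaged 110.8 ± 1.01 CPM in SCI, against 112.2 ± 8.97 in sham and 139.6 ± 16.1 in naive (SD, n = 3 each). It fell against naive in SCI, by a log2 change of -0.33 (SE 0.08, edgeR adjusted p = 0.00542), and in sham, by -0.31 (SE 0.08, edgeR adjusted p = 0.00742). Csnk1e, a kinase that marks PER proteins, rose in both SCI and sham, by 0.28 on the log2 scale (SE 0.06) in SCI and 0.21 (SE 0.06) in sham. Usp2, a deubiquitinase gene with a daily rhythm, rose in SCI by 0.37 on the log2 scale (SE 0.11, edgeR adjusted p = 0.0112), and Nfil3 rose in sham (0.49, SE 0.16, edgeR adjusted p = 0.0183). Bhlhe41, Csnk1d, Btrc and Timeless passed in neither comparison.

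Of 15 clock-controlled output genes 11 were tested. Against naive, 2 rose and 4 fell in SCI, and 1 rose and 6 fell in sham, with median log2 changes of -0.20 and -0.26. The shares of all tested genes called were 48.5% in SCI and 50.6% in sham. Klf9, a factor gene under both clock and glucocorticoid control, averaged 39.2 CPM in SCI and 38.9 in sham, against 61.8 in naive (in SCI a log2 change of -0.65, SE 0.07). Wee1, a cell cycle kinase, averaged 31.4 CPM in SCI and 29.8 in sham, against 48.6 in naive. Nampt, of NAD synthesis, averaged 32.6 CPM in SCI and in sham, against 46.6 in naive. All 3 genes fell in SCI and in sham alike. Between SCI and sham none of the 11 was called, and in sham 3 Klf9 and Nampt were the lowest of the sham libraries.

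Glucocorticoid-induced and immediate early genes were set beside the Per genes, which respond to both kinds of signal. Of 14 glucocorticoid-induced genes tested, 0 were called between SCI and sham, 12 had a positive log2 change, and the median was 0.145. Sgk1, a kinase gene of that list, stood at 45.1 to 56.8 CPM in SCI and 37.1 to 42.6 in sham (log2 change 0.35, SE 0.09, edgeR adjusted p = 0.9999), without overlap and without passing. Against naive, 2 of the 14 rose and 2 fell in SCI, and 0 rose and 3 fell in sham. Among all tested genes 48.5% were called in SCI and 50.6% in sham. Tsc22d3, which steroid receptors switch on, fell in both groups, with log2 changes of -0.29 in SCI (edgeR adjusted p = 0.00870) and -0.25 in sham (edgeR adjusted p = 0.0167). Ddit4, of the same list, went the other way. It rose in SCI (log2 change 0.52, edgeR adjusted p = 0.00205) and did not pass in sham (0.26, edgeR adjusted p = 0.0776). Of 14 immediate early genes tested, 0 were called between SCI and sham and 13 had a positive log2 change. Their median was 0.192, where the median of all genes was -0.0008. Fos, of that list, stood at 11.2 to 12.6 CPM in SCI and 5.55 to 8.63 in sham, without overlap. Its log2 change was 0.76 (SE 0.15), and it did not pass (edgeR adjusted p = 0.495). Over the sham libraries the summed level of the immediate early genes was 305.5, 322.6 and 363.2 CPM in sham 1 to 3, the same order as the Per genes. It was 361.3, 375.8 and 384.1 in SCI 1 to 3. The Schwann cell, satellite glia, macrophage and fibroblast sums also rose from sham 1 to sham 3. Against naive, 6 of the 14 immediate early genes rose and 2 fell in SCI, and 2 rose and 2 fell in sham. The part of the immediate early genes in the Per values was not tested.

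Temperature-linked genes were also followed, since body temperature has a daily rhythm. Of the 8 tested none was called between SCI and sham, with a median log2 change of -0.022. Against naive, 3 rose and 2 fell in SCI, and 2 rose and 2 fell in sham, where 48.5% and 50.6% of all tested genes were called. The chaperone gene Hspb1 rose in both groups, with log2 changes of 0.41 in SCI (edgeR adjusted p = 0.00101) and 0.59 in sham (edgeR adjusted p = 5.465e-05). Hsph1, of the same list, fell in both, by -0.32 in SCI (edgeR adjusted p = 0.00371) and -0.28 in sham (edgeR adjusted p = 0.00719).

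The genes most like Dbp were sought over the 9 libraries, after taking out each group's mean, by Pearson's r of log2 CPM among 16626 other genes. Nr1d1 ranked 4th of all, with an r of 0.976, and Per1 53rd with 0.946. Tef had an r of 0.916, Per2 0.908, Per3 0.893 and Ciart 0.932. Arntl and Cry1 had -0.30 and -0.46. Outside the clock lists the highest were Rilpl2, Cdkn2c, Zfp105, Dbndd2 and Nudt3, at 0.975 to 0.984, and the lowest were Ccdc47, Ncoa7, Alcam, Gnaq and Nlk, at -0.991 to -0.985. These points share the libraries, and sham 3 carries most of the spread of Dbp. Without sham 3 the r was 0.987 for Tef, 0.819 for Nr1d1, 0.783 for Nr1d2 and 0.768 for Per1, but 0.431 for Ciart, 0.073 for Per2 and 0.038 for Per3, and it was -0.84 for Arntl.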

How the data were processed

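Messenger RNA of dorsal root ganglia was measured in 9 libraries, 3 per group, with groups taken from the sample titles. Per the labels' protocols, the TruSeq kit for RNA was used and both ends of fragments were read. Per the submitters' processing notes, the tools were HTSeq, TopHat2, Trimmomatic, FastQC and DESeq2. Versions, build and annotation were not given in the sources used here. In its rows the deposited table of the authors holds read counts per gene as whole numbers without normalization, and all count columns were used. Intervals are not printed for counts, and counting error is included in the fitted spread.

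Genes were tested by quasi-likelihood in edgeR (version 4.0.16, R 4.3.3), after filterByExpr by group and scaling by TMM, with one mean per group over all 9 libraries, which leaves 6 residual degrees of freedom. P-values had Benjamini-Hochberg adjustment over all 16627 genes tested, with calls at an adjusted p under 0.05. The test was tried on simulated counts for SCI against sham, in 5 runs with 200 changed genes each. It recovered 16.8% of changes of 1.25-fold, 56.8% of 1.5-fold and 79.6% of 2-fold. Calls of unchanged genes averaged 8.8 per run. A gene that was not called was thus not shown to be unchanged. For log2 CPM the prior count was 2. The clock genes, all gene lists and the comparisons were chosen with earlier results of these data known, so no list was given a test. The alternatives were DESeq2 (version 1.42.0), limma-voom (limma 3.58.1), scaling by RLE or the upper quartile, a strict filter (1 CPM in all libraries) or none, a fit of only the groups compared, a block for the replicate number, an adjusted p under 0.1, and each library left out in turn. Named were all 10 clock genes, the tested accessory clock genes (some, although counted, are not reported here by name), up to 3 genes of each further list, and the 5 genes with the highest and the 5 with the lowest r with Dbp. Symbols were matched in the table, or through RefSeq synonyms (GRCr8). Reads from overlapping genes on opposite strands cannot be told apart.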

Additional observations from a re-analysis of the deposited data

How the results depend on the processing

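Over 17 alternatives for each of the 10 clock genes in 3 comparisons, no other scaling, filter, tool, sample choice or block turned a direction. Leaving out 1 library at a time did, so that the log2 change between SCI and sham ran from -0.095 to 0.024 for Cry1, -0.031 to 0.106 for Clock, -0.731 to 0.169 for Nr1d1, -0.576 to 0.209 for Dbp and -0.078 to 0.047 for Tef. Between SCI and naive it ran from -0.141 to 0.065 for Dbp, and between sham and naive from -0.195 to 0.198 for Per1, -0.388 to 0.499 for Nr1d1 and -0.264 to 0.508 for Dbp. The count of genes called between SCI and sham was 0 with all libraries, 8 with DESeq2, 11 without a filter, and 0 to 22 with 1 library left out, the 22 being without sham 3. Clock genes called with 1 library left out numbered 0 to 1 (SCI against sham, the 1 being without sham 3), 4 to 7 (SCI against naive) and 3 to 6 (sham against naive, the 3 being without sham 2). The shares of all genes called in those fits were 39.8% to 54.5% (SCI against naive) and 43.2% to 51.2% (sham against naive). With only the groups compared, 9 were called between SCI and naive, against 58.4% of all genes. The log2 change between SCI and sham ran from 0.13 to 0.555 for Per2, 0.074 to 0.481 for Per1 and 0.004 to 0.356 for Per3, each lowest without sham 1 and highest without sham 3. The clock contrast between SCI and sham was -0.092, and -0.37 as Dbp minus Arntl. That between SCI and naive was 0.002, but -0.576 without Clock and -0.422 as Dbp minus Arntl, and between sham and naive 0.094, but -0.427 without Clock, since Clock and Arntl moved in opposite directions. With 1 library left out the contrast ran from -0.218 to 0.135 (SCI against sham), -0.063 to 0.115 (SCI against naive) and -0.133 to 0.220 (sham against naive).

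Replicate numbers recur in each group with no stated link to an animal or day. Same-numbered libraries had correlations of their deviations from -0.0946 to 0.124 over 9 pairs, and pairs with different numbers from -0.132 to 0.156. Such values over all genes cannot show whether same-numbered libraries shared a day, an hour or a batch. With the replicate block 0, 5 and 4 clock genes were called in SCI against sham, SCI against naive and sham against naive, and 0, 7848 and 8153 genes in all. With 3 libraries a group, and a sham group whose libraries differ from each other more than those of the other groups, differences between SCI and sham of the size seen for Nr1d1 and Dbp cannot be separated from the spread.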
